A study of Mus musculus with 6 samples.

Results

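Tetraspanins are membrane proteins that cross the membrane 4 times and assemble, with integrins, immunoglobulin superfamily proteins and proteases, into patches of the plasma and endosomal membranes. Several of them, above all Cd63, Cd81 and Cd9, are sorted onto small extracellular vesicles (sEVs) and serve as the usual protein markers of these vesicles. The mRNA of 10 tetraspanin genes was followed in mouse melanoma cells, out of 23951 genes in the expression table: Cd9, Cd37, Cd53, Cd63, Cd81, Cd82, Cd151, Tspan4, Tspan8 and Tspan10. They were chosen by name, as family members with a known place on vesicles, in integrin complexes, in leukocytes or in pigment cells, with earlier results of these data known. What was measured is cellular mRNA, not the tetraspanin protein on vesicles.

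Poly(A) RNA was sequenced from 3 untreated lines of the B16 mouse melanoma, with 2 libraries each: B16-F1, the parental line of low metastatic potential, obtained from ATCC, B16-F1R2, grown out of a lymph node metastasis (the lymph node line), and B16-F1R2L, grown out of a lung metastasis that itself came from a lymph node metastasis (the lung line). The derived lines both came from the Detmar and Proulx laboratory at ETH Zurich, so the metastatic origin of a line and its source cannot be told apart in these data, and each line is a single cell line. All were grown in high-glucose DMEM with serum. The values are FPKM, read numbers scaled by transcript length and by the mapped reads of the library, which allow levels of different genes to be compared per length. The libraries held an estimated 12900000 to 14900000 reads on genes, and the median gene differed between replicate libraries by 0.0669 to 0.0951 on the log2(FPKM + 0.1) scale. The labels do not say whether replicates were separate cultures, so that p-values measure the spread between these libraries, which may be technical. All 7 melanocyte markers on a fixed list, among them Mitf, Tyr and Pmel, were at 1 FPKM or more in all 6 libraries.

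Of the 10 tetraspanins, 8 passed the filter of at least 1 FPKM in at least 2 libraries and were tested, and Cd53 and Tspan8 were listed at 0 in all 6 libraries. In B16-F1R2 against B16-F1, 3 of the 8 were higher (Cd37, Cd81 and Cd9), 4 were lower (Cd63, Cd151, Tspan10 and Cd82) and Tspan4 did not pass the test (limma, Benjamini-Hochberg adjusted p under 0.05). Over all 11379 tested genes, 28.2% were called higher and 27.2% lower in this comparison. Cd37 passed the filter only through its level in the derived lines and had to differ, and with 8 genes the counts are a description that sets the group apart in neither direction. In B16-F1R2L against B16-F1, 3 were higher and 5 lower, against 29.5% and 27.1% of all tested genes. The median log2 fold change of the 8 was -0.13 for B16-F1R2 and -0.33 for B16-F1R2L, beside 0.0046 and 0.017 over all tested genes. These comparisons share the B16-F1 libraries. Between the derived lines, 2 of the 8 were higher in B16-F1R2L (Cd82 and Tspan10) and 1 was lower (Tspan4), against 12.1% and 10.5% of all tested genes, with a median of 0.03 beside 0.022.

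**Figure D1:**
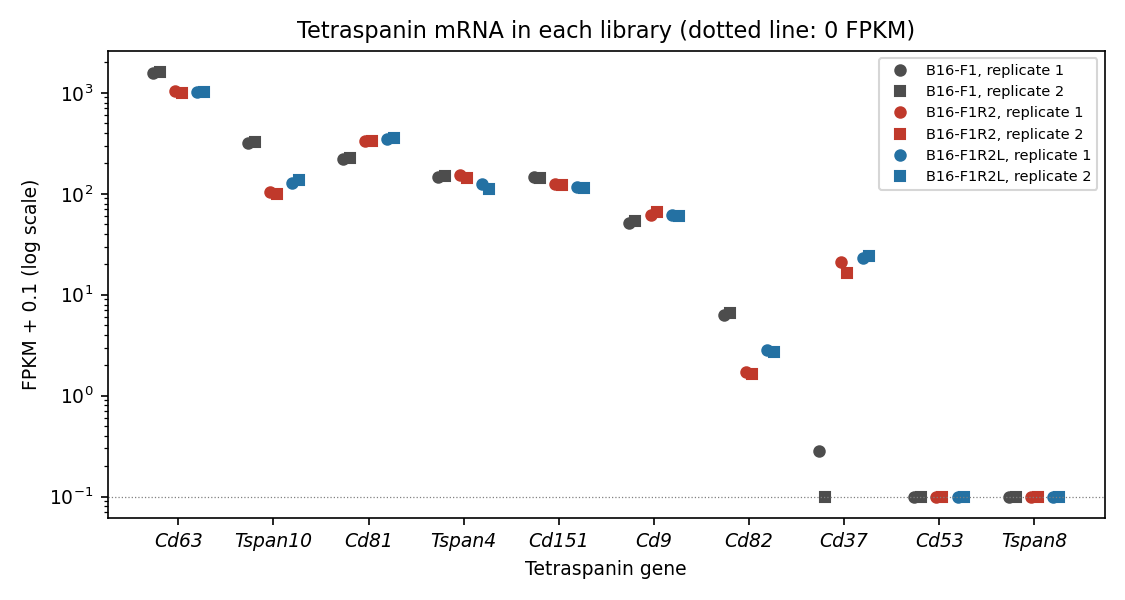
FPKM + 0.1 on a log scale (y axis) of the 10 tetraspanins (x axis) in each of the 6 libraries, with circles for replicate 1 and squares for replicate 2 and the dotted line at 0 FPKM. Cd63 was the highest in every library, Cd37 stood near 0 in B16-F1 and between 16.4 and 24.2 FPKM in the derived lines, and Cd53 and Tspan8 lay on the dotted line throughout.

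The vesicle tetraspanins moved in opposite directions. Cd63, which cycles between late endosomes, melanosomes and the cell surface and is the classical marker of vesicles of endosomal origin, was the most abundant tetraspanin mRNA in all 6 libraries. It stood at 1558 and 1610 FPKM in B16-F1, at 1055 and 998 FPKM in B16-F1R2 and at 1023 and 1019 FPKM in B16-F1R2L. Both derived lines lay below both B16-F1 libraries and overlapped each other. The log2 fold change was -0.63 in B16-F1R2 (SE 0.053, 95% interval -0.75 to -0.50, adjusted p = 1.6e-04) and -0.63 in B16-F1R2L (adjusted p = 1.6e-04, limma). Among all genes, Cd63 held rank 64 and 62 in B16-F1, and ranks from 100 to 116 in the others. The gene lies at 10:128345975-128349872 on the plus strand of NCBIM37 (mm9), and 83.3% of its exon bases match, at 96% identity or more over at least 50 bases, 1 copy elsewhere in the genome, the pseudogene Cd63-ps. Reads from the matching stretches can be assigned to either place, so the level of Cd63 is uncertain to that extent.

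Cd81, which controls the trafficking of its partner receptors and is abundant on vesicles that bud from the plasma membrane and endosomes, was higher in the derived lines. Its level was 219.8 and 224.4 FPKM in B16-F1, 335.4 and 335.0 FPKM in B16-F1R2 and 351.3 and 353.5 FPKM in B16-F1R2L. The 3 lines did not overlap. The log2 fold change against B16-F1 was 0.59 in B16-F1R2 (SE 0.039, 95% interval 0.50 to 0.69, adjusted p = 5.5e-05) and 0.67 in B16-F1R2L (95% interval 0.57 to 0.76, adjusted p = 3.5e-05, limma). Between the derived lines the difference was 0.07 (95% interval -0.02 to 0.17, adjusted p = 0.22) and did not pass the test in limma, while it did after rescaling every library to the same FPKM sum (0.18, adjusted p = 0.029) and after quantile normalization (0.22, adjusted p = 0.038).

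Cd81 lies at 7:150238644-150253839 on the plus strand of NCBIM37, with 8 exons in its longest transcript and 30 exon bases that overlap the antisense gene R74862. Its upstream stretch is shown because it is the CpG-rich kind of start, to be set beside those of Tspan10 and Cd53. RefSeq's window of 250 bases before its start (build GRCm38.p6), matched letter for letter to NCBIM37, holds 16 CpG sites, more than 74.6% of 32851 such windows in the genome, whose median is 6. The part that lies outside annotated exons, 7:150238405-150238643 on the plus strand, is printed with the matches to GGGCGG, the core of a GC box, in capitals. The window holds 3 of them, of which 2 are complete in the printed stretch and the last capital letter begins the other. GGGCGG, searched on both strands, occurs in 32.7% of all windows.
Cd81 upstream: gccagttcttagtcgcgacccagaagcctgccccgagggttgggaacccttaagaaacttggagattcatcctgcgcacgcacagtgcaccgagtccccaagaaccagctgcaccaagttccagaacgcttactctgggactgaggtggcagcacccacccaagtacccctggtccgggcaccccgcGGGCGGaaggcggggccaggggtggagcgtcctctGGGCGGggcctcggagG

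Cd9, which binds the immunoglobulin superfamily proteins Igsf8 and Ptgfrn and takes part in cell adhesion and membrane fusion, was modestly higher in the derived lines. It measured 51.8 and 54.2 FPKM in B16-F1, 62.0 and 65.2 FPKM in B16-F1R2 and 61.4 and 60.5 FPKM in B16-F1R2L. Neither derived line overlapped B16-F1. Its log2 fold change came to 0.26 in B16-F1R2 (SE 0.047, 95% interval 0.15 to 0.38, adjusted p = 0.0037) and 0.20 in B16-F1R2L (95% interval 0.09 to 0.31, adjusted p = 0.011, limma). The call in B16-F1R2L was lost without B16-F1 replicate 1 (0.17, adjusted p = 0.078). Cd9 lies at 6:125410284-125444809 on the minus strand, where 30 exon bases overlap the antisense gene Gm16749 and 9.78% of the exon bases recur elsewhere in the genome.

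Because Cd63 fell while Cd81 and Cd9 rose, the make-up of the vesicle trio shifted. The ratios that follow are taken within a library, do not depend on how libraries were scaled, were chosen after the values had been seen, and are given without a test. The ratio of Cd63 to Cd81 was 7.09 and 7.17 in the parental line, 3.15 and 2.98 in the lymph node line and 2.91 and 2.88 in the lung line. The ratio of Cd63 to Cd9 was 30.1 and 29.7 in B16-F1 and between 15.3 and 17.0 in the derived lines. B16-F1 thus stood apart from both derived lines in these ratios. In B16-F1R2L against B16-F1R2, neither Cd63 (log2 fold change -0.01, 95% interval -0.14 to 0.12, adjusted p = 0.93) nor Cd9 (-0.06, 95% interval -0.17 to 0.05, adjusted p = 0.38) passed the test in limma, and the sign of both changed under other scalings. The ratio of Cd81 to Cd9 moved less, from 4.24 and 4.14 to 5.41 and 5.14 in the B16-F1R2 libraries, and to 5.72 and 5.85 in those of B16-F1R2L.

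Summed over the 10 genes, tetraspanin mRNA amounted to 2448 and 2513 FPKM in B16-F1, 1858 and 1779 FPKM in B16-F1R2 and 1830 and 1822 FPKM in B16-F1R2L. Cd63 made up 63.7% and 64.1% of the sum in B16-F1 and 55.9% to 56.8% in the derived lines. The lower sum in the derived lines thus went with a lower share of Cd63, its largest term. The share of Cd81 was 8.98% and 8.93% in the parental line, 18.1% and 18.8% in the lymph node line and 19.2% and 19.4% in the lung line. Tspan10 held 12.9% and 12.8% of the sum in B16-F1, 5.54% and 5.64% of it in B16-F1R2 and 6.97% and 7.43% of it in B16-F1R2L.

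**Figure D2:**
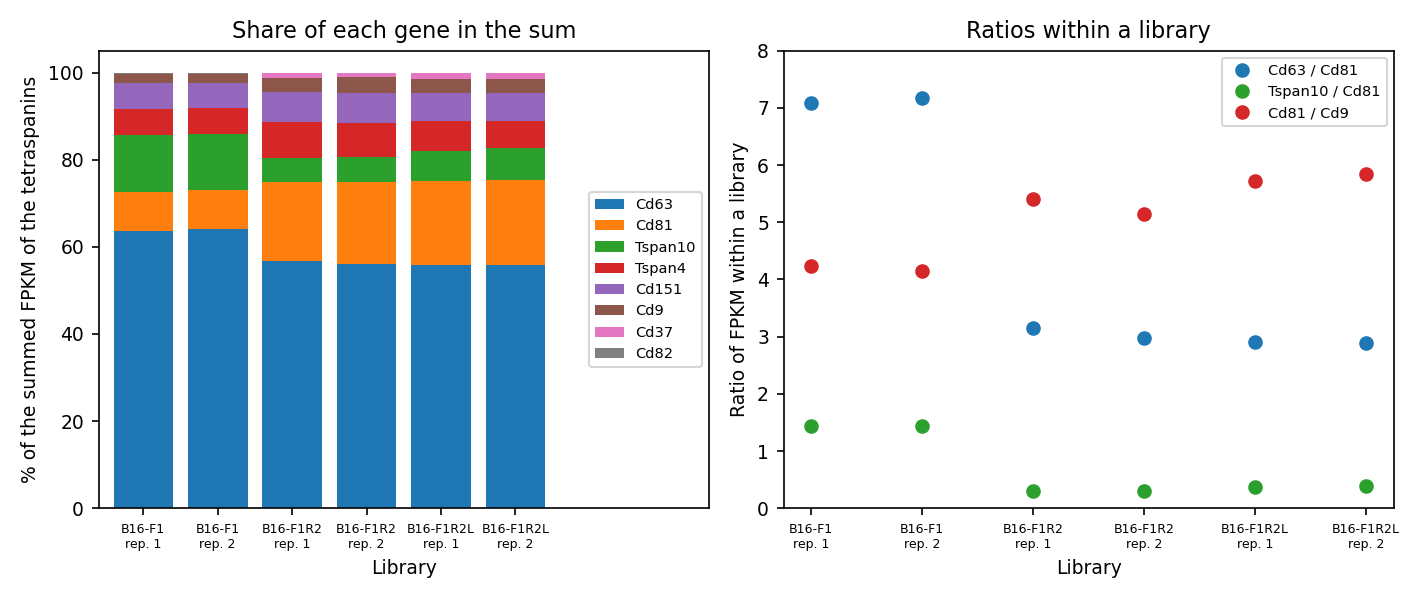
Left, percentage of the summed FPKM of the 10 tetraspanins (y axis) that each gene held in each library (x axis), as stacked bars from 0 to 100%, with Cd53 and Tspan8 at 0. Right, FPKM ratios of Cd63 to Cd81, Tspan10 to Cd81 and Cd81 to Cd9 (y axis, no unit) within each library (x axis). The Cd63 to Cd81 ratio was 7.09 and 7.17 in B16-F1 and lay between 2.88 and 3.15 in the other 4 libraries.

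Tspan10, a tetraspanin of the TspanC8 group that escorts the protease Adam10 out of the endoplasmic reticulum and is expressed in pigment cells, showed the largest loss among the abundant members. Its level was 316.9 and 322.5 FPKM in B16-F1, 103.0 and 100.3 FPKM in B16-F1R2 and 127.6 and 135.4 FPKM in B16-F1R2L. The 3 lines did not overlap, and the derived lines were closer to each other than to B16-F1. This amounts to a log2 fold change of -1.65 in B16-F1R2 (SE 0.045, 95% interval -1.76 to -1.54, adjusted p = 2.2e-06) and -1.28 in B16-F1R2L (95% interval -1.39 to -1.17, adjusted p = 4.9e-06, limma). B16-F1R2L was higher than B16-F1R2 by 0.37 (SE 0.045, 95% interval 0.26 to 0.48, adjusted p = 0.0063). Set against Cd81 within a library, a ratio that like those above was chosen after the values had been seen, Tspan10 stood at 1.44 in both B16-F1 libraries, at 0.307 and 0.299 in the lymph node line and at 0.363 and 0.383 in the lung line. Over 17 other settings of the test, the difference between B16-F1R2 and B16-F1 ranged from -1.67 to -1.61.

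Tspan10 lies at 11:120303945-120308635 on the plus strand of NCBIM37, with 3 exons in its longest transcript. Its upstream stretch is shown as that of the abundant member that changed most. The 250 bases before its start, 11:120303695-120303944, hold 1 CpG site, and 7.87% of all windows hold fewer. The capitals mark CACATG, which on the opposite strand reads CATGTG, a form of the E-box that basic helix-loop-helix factors of the Mitf family recognize. It begins 21 bases before the start. CATGTG occurs on either strand in 12.3% of all windows. The longer TCATGTGA contains it here, was looked up after the letters had been seen, and occurs in 0.846%. The other form, CACGTG, is missing from this window and occurs in 6.02%. A match of letters is not a measured site.
Tspan10 upstream: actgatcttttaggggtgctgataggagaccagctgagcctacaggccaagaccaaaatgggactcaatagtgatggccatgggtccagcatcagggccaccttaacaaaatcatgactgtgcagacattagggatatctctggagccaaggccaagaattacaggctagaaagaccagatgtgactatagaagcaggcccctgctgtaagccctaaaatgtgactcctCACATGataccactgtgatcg

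Most pigment-cell genes on the fixed list were lower where Tspan10 was. Against B16-F1, 6 of the 7 melanocyte markers were lower in the lymph node line, beside 27.2% of all tested genes, and Mitf did not pass the test. Their summed level was 14970 and 15007 FPKM in B16-F1, 8125 and 7909 FPKM in B16-F1R2 and 8933 and 8924 FPKM in B16-F1R2L. In B16-F1R2L, 6 of the 7 were lower than in B16-F1, beside 27.1% of all tested genes, and 1, Mitf, was higher. Between the derived lines, 3 were higher in B16-F1R2L, beside 12.1% of all tested genes, and none passed as lower, and Tspan10 was also higher there. The part of the melanocyte program in the level of Tspan10 was not tested, and in bulk RNA fewer cells that express a gene and less of its RNA per cell cannot be told apart. Of the 8 tested genes nearest to Tspan10 on its chromosome, 4 to each side, the median log2 fold change in B16-F1R2 was -0.19, with a range from -1.18 (0610009L18Rik) to 0.48 (Ccdc137).

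Members of the TspanC8 group compete for Adam10. Of its 6 genes, 5 were tested: in B16-F1R2 against B16-F1 Tspan15 was higher, Tspan10 and Tspan17 were lower, and Tspan5 and Tspan14 did not pass the test, beside 28.2% higher and 27.2% lower over all tested genes. Tspan15, the partner under which Adam10 cleaves N-cadherin, measured 1.99 and 2.19 FPKM in B16-F1, 3.69 and 3.28 FPKM in B16-F1R2 and 4.23 and 4.14 FPKM in B16-F1R2L (log2 fold change in B16-F1R2 0.71, adjusted p = 0.0021, limma). Tspan17 was at 17.2 and 16.2 FPKM in B16-F1, 12.0 and 11.6 FPKM in B16-F1R2 (log2 fold change -0.50, adjusted p = 0.0098, limma) and 18.4 and 14.4 FPKM in B16-F1R2L. In B16-F1R2L it overlapped B16-F1 (-0.04, adjusted p = 0.80) and was above B16-F1R2 by 0.46 (adjusted p = 0.033, limma), a call lost with no filter, with no trend, in the fit to 4 libraries, under quantile normalization and without each library other than B16-F1R2L replicate 2 (adjusted p from 0.054 to 0.12). Its call in B16-F1R2 was lost without B16-F1 replicate 1 (adjusted p = 0.060) and without B16-F1R2 replicate 2 (adjusted p = 0.055). Adam10 itself measured 34.8 and 33.9 FPKM in B16-F1, 30.9 and 32.8 FPKM in B16-F1R2 and 34.0 and 35.1 FPKM in B16-F1R2L. Its log2 fold change in B16-F1R2 was -0.11 (95% interval -0.23 to 0.01) and did not pass the test. Tspan10 was the most abundant TspanC8 mRNA in all 6 libraries, ahead of Tspan14 at 36.4 to 44.0 FPKM.

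Cd82, a suppressor of metastasis in several tumors that restrains integrin and growth factor receptor signaling, was low in all lines and lower in the derived ones. It stood at 6.18 and 6.52 FPKM in B16-F1, 1.62 and 1.56 FPKM in B16-F1R2 and 2.75 and 2.60 FPKM in B16-F1R2L. The 3 lines did not overlap, and B16-F1R2L lay between the others, as it did for Tspan10. The fitted log2 fold change was -1.93 in B16-F1R2 (SE 0.099, 95% interval -2.17 to -1.69, adjusted p = 2.1e-05) and -1.22 in B16-F1R2L (95% interval -1.46 to -0.98, adjusted p = 1.4e-04, limma). B16-F1R2L was above B16-F1R2 by 0.72 (SE 0.099, 95% interval 0.48 to 0.96, adjusted p = 0.0083). These values rest on few reads: spread over its longest transcript, the level of Cd82 came to an estimated 154 and 153 reads in B16-F1 and only 41.0 and 39.7 reads in B16-F1R2. With a pseudocount of 1 in place of 0.1 the difference in B16-F1R2 was -1.5. Cd82 lies at 2:93259268-93303297 on the minus strand, with no overlapping exon and no copy elsewhere.

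Cd151, which binds the laminin receptors of the integrin family directly, and Tspan4, which marks migrasomes, the vesicles left on retraction fibers, are neighbours in the genome, 3760 bases apart. Cd151 was at 148.1 and 144.0 FPKM in B16-F1, 124.6 and 120.9 FPKM in B16-F1R2 and 116.3 and 114.8 FPKM in B16-F1R2L. The lines did not overlap, although the steps were small. On the log2 scale the change was -0.25 in B16-F1R2 (SE 0.040, 95% interval -0.35 to -0.15, adjusted p = 0.0024) and -0.34 in B16-F1R2L (adjusted p = 6.7e-04, limma). B16-F1R2L differed from B16-F1R2 by -0.09 (95% interval -0.18 to 0.01, adjusted p = 0.16), with the opposite sign after rescaling (0.02).

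Tspan4 followed another pattern. It measured 146.6 and 151.7 FPKM in B16-F1, 155.0 and 141.8 FPKM in B16-F1R2 and 124.7 and 112.7 FPKM in B16-F1R2L. B16-F1 and B16-F1R2 overlapped, and B16-F1R2L lay below both. By limma the log2 fold change was -0.01 in B16-F1R2 (95% interval -0.17 to 0.15, adjusted p = 0.92), while in B16-F1R2L it was -0.33 against B16-F1 (SE 0.067, adjusted p = 0.0063) and -0.32 against B16-F1R2 (adjusted p = 0.022, limma). The latter call was not stable. It was lost with no filter on low values, without a trend in the variance, in a fit to the 4 libraries compared, and without either B16-F1 library, B16-F1R2 replicate 1 or B16-F1R2L replicate 2, with adjusted p from 0.0504 to 0.106. The ratio of Cd151 to Tspan4 was 1.01 and 0.950 in the parental line, 0.804 and 0.853 in the lymph node line and 0.933 and 1.02 in the lung line. Cd151 (7:148653261-148657378) and Tspan4 (7:148661139-148679326), both on the plus strand, overlap antisense genes over 223 exon bases (Gm10575) and 292 exon bases (Chid1). The libraries were stranded, but whether strand was used in counting is not given in the sources used here, so reads from these overlaps cannot be assigned with certainty.

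**Figure D3:**
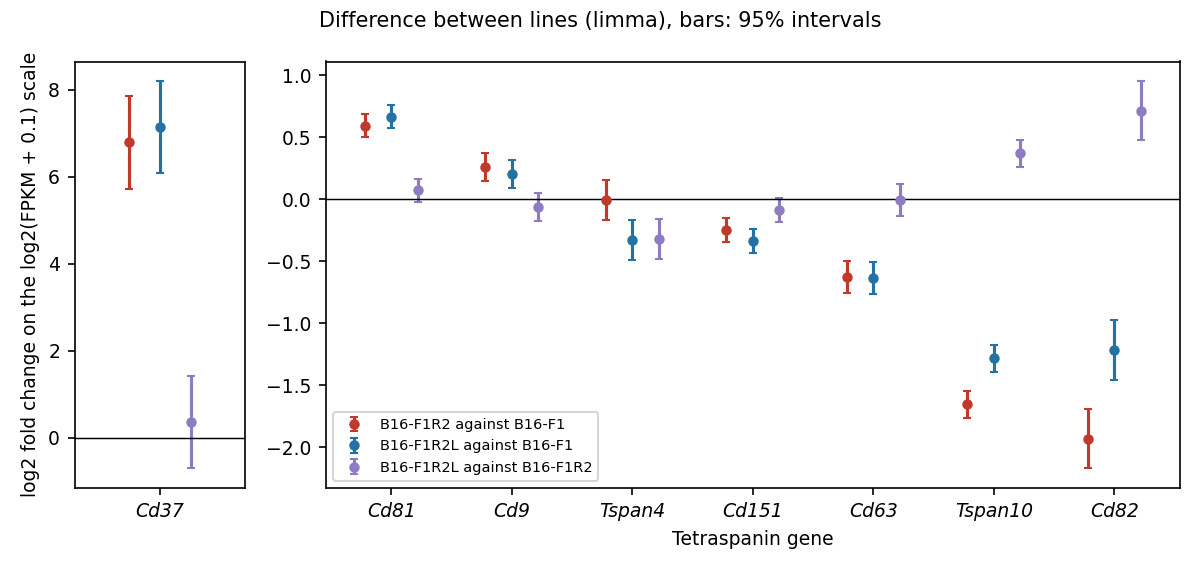
log2 fold change on the log2(FPKM + 0.1) scale (y axis) of the 8 tested tetraspanins (x axis) in 3 comparisons, with points for the limma estimate and bars for its 95% interval, and Cd37 on its own axis at the left. Cd37, Cd81 and Cd9 lay above 0 and Cd151, Cd63, Tspan10 and Cd82 below 0 in both comparisons with B16-F1, and between the derived lines Cd82 (0.72) and Tspan10 (0.37) were above 0 and Tspan4 (-0.32) below it.

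Of the leukocyte tetraspanins chosen here, Cd37 and Cd53, only Cd37 was measured above 0. Cd37, which in B cells and other leukocytes regulates adhesion and signaling, was nearly absent from B16-F1 and present in both derived lines. Its level was 0.184 FPKM in B16-F1 replicate 1 and listed at 0 in replicate 2, against 20.9 and 16.4 FPKM in B16-F1R2 and 23.2 and 24.2 FPKM in B16-F1R2L. B16-F1 lay far below all 4 other libraries, which did not overlap between the lines either. Spread over its longest transcript, where 1 read is worth 0.0264 to 0.0306 FPKM, these values came to an estimated 6.38 and 0 reads in B16-F1 and to 583 to 918 reads in the derived lines.

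The log2 fold change of Cd37 against B16-F1 was 6.79 for the lymph node line and 7.14 for the lung line, given as a description without a test because the filter let Cd37 pass only through these lines. With B16-F1 so close to 0, the size of this value depends on the pseudocount: in B16-F1R2 it was 4.17 with a pseudocount of 1 and 8.72 with 0.01, and in B16-F1R2L 4.50 and 9.07. Without B16-F1 replicate 1, the library with reads, it was 7.54 for B16-F1R2 and 7.89 for B16-F1R2L, and without replicate 2 it was 6.04 and 6.39. B16-F1R2L differed from B16-F1R2 by 0.35 (95% interval -0.71 to 1.42, adjusted p = 0.59) and did not pass the test.

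Leukocyte genes other than Cd37 were measured beside it. Of 10 leukocyte markers, Ptprc, the pan-leukocyte antigen CD45, and Ms4a1, Cd3e and Itgam were listed at 0 in all 6 libraries. Their summed level was 1.19 and 2.45 FPKM in B16-F1, 15.0 and 15.8 FPKM in B16-F1R2 and 20.7 and 20.5 FPKM in B16-F1R2L. Most of the sum in the derived lines was Cd79a, a B cell receptor subunit, which was at 0 and 0.0593 FPKM in B16-F1, 12.7 and 12.4 FPKM in B16-F1R2 and 17.1 and 15.9 FPKM in B16-F1R2L. It too passed the filter only through the derived lines and had to differ, so no test is given. Its partner Cd79b was at 0 in both B16-F1 libraries and at 0.274 to 0.395 FPKM in the derived lines, and Csf1r, a receptor of macrophages, was at 0 in B16-F1 and at 0.0397 to 0.174 FPKM in the derived lines. Lyz2, the lysozyme of myeloid cells, named after its values were seen, measured 0.170 and 0.625 FPKM in B16-F1 and 0.916 to 2.05 FPKM in the derived lines, and it too passed the filter only through these. Cd79a, Cd79b, Csf1r and Lyz2 were thus higher in every derived library than in B16-F1, like Cd37, while Ptprc, Ms4a1, Cd3e and Itgam were at 0 throughout. The part of leukocyte RNA in the level of Cd37 was not tested.

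The remaining lists stood low: fibroblast markers summed to 0.735 to 2.31 FPKM, endothelial markers to 0 to 1.26 FPKM and keratinocyte markers to 0 to 0.06 FPKM over the 6 libraries. Of these lists, 1 fibroblast gene, Col1a2, and 1 endothelial gene, Pecam1, named after their values were seen, passed the filter. Col1a2 did so only through the derived lines, and Pecam1 only through B16-F1R2L. The other endothelial markers, Cdh5, Kdr and Tek, were listed at 0 in all 6 libraries, as were the fibroblast markers Dcn and Lum. Pdgfra measured 0.101 and 0.139 FPKM in B16-F1 and 0.0784 to 0.144 FPKM in the derived lines. Col3a1 was listed at 0 in B16-F1 and at 0 to 0.0270 FPKM in the derived lines. Col1a2 measured 0.635 and 0.742 FPKM in B16-F1 and 1.04 to 2.17 FPKM in the derived lines, and Pecam1 was listed at 0 in B16-F1 and measured 0.752 to 1.26 FPKM in the derived lines. Their part in any tetraspanin level was not tested.

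Cd37 lies at 7:52489002-52494485 on the minus strand of NCBIM37, with 9 annotated transcripts and no copy elsewhere, and 4 of its exon bases overlap the antisense gene Tead2. The 8 tested genes nearest to it, 4 to each side, had a median log2 fold change of -0.08 in B16-F1R2. They ranged from -0.52 (Aldh16a1) to 0.92 (Tead2), so that none of them came near the 6.79 of Cd37. RefSeq's window before its own start for Cd37 lies inside the gene as annotated here, and holds 8 CpG sites and a CACGTG that begins 228 bases before that RefSeq start.

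Cd53, the other leukocyte tetraspanin chosen here, was listed at 0 in all 6 libraries. So was Tspan8, a tetraspanin of gut and other epithelia that is linked to metastasis in carcinomas. For Cd53, at 3:106561779-106593067 on the minus strand, 1 read on its transcript is worth 0.0239 to 0.0277 FPKM, and for Tspan8, at 10:115254340-115286949 on the plus strand, 0.0441 to 0.0511 FPKM. A 0 in an FPKM table can also be a failed estimate, and levels below these cannot be seen at this depth. The upstream stretch of Cd53 is shown as that of a leukocyte gene without a signal in these cells. The window 3:106593068-106593317, read on the minus strand, holds 2 CpG sites, with fewer in 18.8% of all windows, and matches neither form of the E-box nor the GC box, so it carries no capitals.
Cd53 upstream: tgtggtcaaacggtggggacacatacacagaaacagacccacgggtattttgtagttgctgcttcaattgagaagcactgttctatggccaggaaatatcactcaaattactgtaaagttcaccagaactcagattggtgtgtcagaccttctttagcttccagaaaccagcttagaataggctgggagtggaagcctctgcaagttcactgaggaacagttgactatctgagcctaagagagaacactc

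The order of levels changed most for Tspan10. In B16-F1 it ran Cd63, Tspan10, Cd81, Tspan4, Cd151, Cd9, Cd82 and Cd37 and, of the genes measured in both libraries, Tspan4 and Cd151 overlapped. In B16-F1R2 it ran Cd63, Cd81, Tspan4, Cd151, Tspan10, Cd9, Cd37 and Cd82, with no overlap between neighbours. In B16-F1R2L it ran Cd63, Cd81, Tspan10, Tspan4, Cd151, Cd9, Cd37 and Cd82, with Tspan4 and Cd151 overlapping again. Tspan10 was thus at position 2, 5 and 3, while Cd63 came at the top and Cd9 at position 6 in each line. Cd37 and Cd82 traded places between B16-F1 and the derived lines.

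Genes with the most similar profile were sought for each tested member and are given for the 3 with the largest change, by the Euclidean distance over the 6 libraries of log2(FPKM + 0.1) after subtraction of each gene's B16-F1 mean. For Tspan10 they were Relb (0.229), Ttpa (0.267) and Fam84b (0.269). For Cd82 they were Fez1 (0.351), Mcoln1 (0.359) and Tm7sf2 (0.370). For Cd37 they were Fitm1 (1.12), Slc12a8 (1.14) and Acsbg1 (1.21), with Acsbg1 at 0.319 and 0.200 FPKM in B16-F1 and 55.2 to 61.9 FPKM in the derived lines. The distances for Cd37 are not comparable with the others, since its B16-F1 libraries lie at 0.184 and 0 FPKM, where few reads decide the log2 value.

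Of the 23 other tetraspanins, 21 were matched by symbol, 2 of them at 0 in all libraries, and 13 were tested. In B16-F1R2 against B16-F1, 2 were higher, 5 lower and 6 did not pass the test, beside 28.2% and 27.2% of all tested genes, with a median log2 fold change of -0.01. Tspan2, known from oligodendrocytes, was higher by 3.51, but like Cd37 it passed the filter only through the derived lines and had to differ. It measured 0.0456 and 0.0313 FPKM in B16-F1, 1.38 and 1.57 FPKM in B16-F1R2 and 1.82 and 2.10 FPKM in B16-F1R2L. With a pseudocount of 1 its log2 fold change was 1.25. Tspan15 was the other gene that was higher.

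Lower were Tspan9 (log2 fold change -0.87, adjusted p = 2.3e-05), Tspan13 (-0.77), Tspan7 (-0.68), Tspan17 (-0.50) and Tspan12 (-0.24), all by limma. Tspan12, an activator of Norrin signaling, falls outside the naming rule and was added after its value was seen. Its call was lost without either B16-F1 library and without B16-F1R2 replicate 1 (adjusted p from 0.062 to 0.092, limma). Tspan9 measured 30.2 and 29.6 FPKM in B16-F1, 16.4 and 16.3 FPKM in B16-F1R2 and 23.0 and 22.8 FPKM in B16-F1R2L. B16-F1R2L exceeded B16-F1R2 by 0.48 (adjusted p = 0.0031, limma), so that B16-F1R2L lay between the others, as for Cd82 and Tspan10. In B16-F1R2L against B16-F1, 4 of the 13 were higher and 4 lower (median -0.04), beside 29.5% and 27.1% of all tested genes. Tspan2, which had to differ, was among the higher. Between the derived lines 3 were higher in B16-F1R2L and 0 lower (median 0.16), beside 12.1% and 10.5%.

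**Figure D4:**
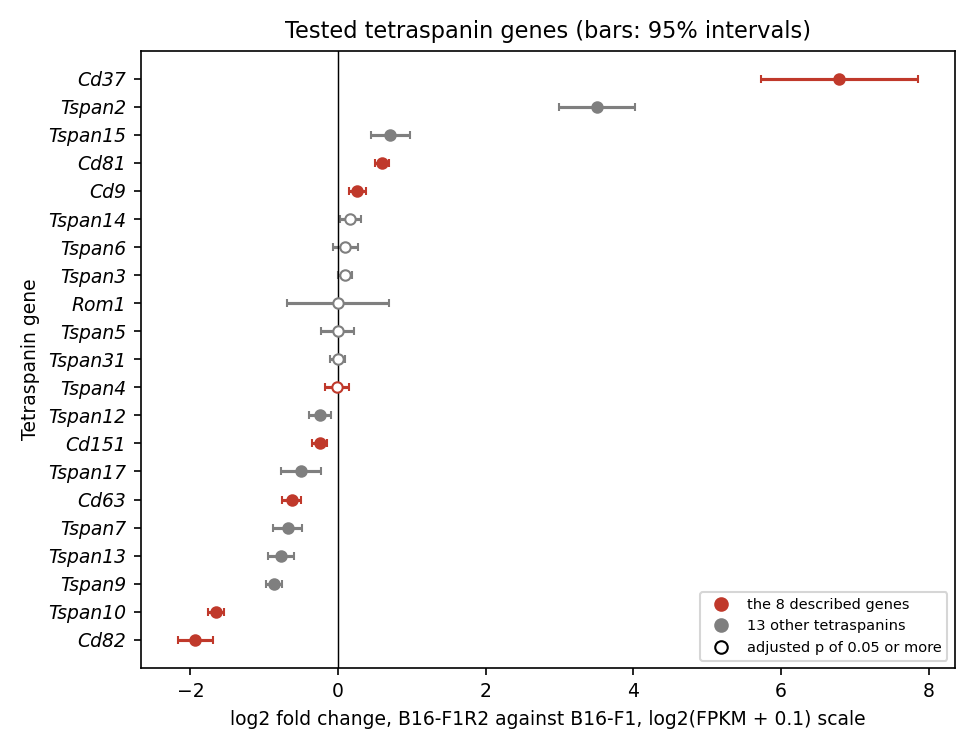
log2 fold change in B16-F1R2 against B16-F1 on the log2(FPKM + 0.1) scale (x axis) of the 21 tested tetraspanins (y axis), sorted, with bars for 95% intervals, red for the 8 genes described above, gray for the 13 others and open points where the adjusted p was 0.05 or more. Cd37 (6.79) and Tspan2 (3.51) lay at the upper end and Tspan10 (-1.65) and Cd82 (-1.93) at the lower end.

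Among 17 partners of tetraspanins, 12 were tested. In B16-F1R2 against B16-F1, 5 were higher, 3 lower and 4 did not pass, beside 28.2% and 27.2% of all tested genes, with a median log2 fold change of 0.0093. Among the laminin-binding integrin chains, to which Cd151 attaches, Itga6 rose by 0.71, from 19.1 and 18.2 FPKM to 30.0 and 31.0 FPKM. Itga7 was higher by 2.49, from 0.156 and 0.0931 FPKM to 1.22 and 1.09 FPKM, but passed the filter only through the derived lines and had to differ. Its log2 fold change ran from 0.80 under quantile normalization to 3.15 with a pseudocount of 0.01. Itga3, low throughout and not tested, measured 0.297 and 0.526 FPKM in B16-F1, and 0.0740 and 0.121 FPKM in B16-F1R2. Itgb1, the beta chain these can pair with, measured 190 to 192 FPKM in the libraries of both lines, with a log2 fold change of -0.01 that did not pass the test. Timp1, a protease inhibitor that binds Cd63 at the cell surface, rose by 1.58, from 4.81 and 5.24 FPKM to 16.1 and 14.3 FPKM. Zdhhc2, an enzyme that attaches palmitate to Cd9 and Cd151, rose by 1.08.

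The immunoglobulin superfamily partners that were tested, Igsf8 and Igsf3, were lower. Igsf8, which binds Cd9 and Cd81, fell by 0.52, from 154 and 159 FPKM to 112 and 106 FPKM in B16-F1R2, and stood at 140.3 and 134 FPKM in B16-F1R2L, above B16-F1R2 by 0.33 (adjusted p = 0.0087, limma). Igsf3 fell by 0.70. Ptgfrn was under 0.49 FPKM in every library and was not tested. In B16-F1R2L against B16-F1, 5 partners were higher and 3 lower, beside 29.5% and 27.1% of all tested genes. Itga7, which had to differ, was among the higher. Between the derived lines 2 partners were higher and 0 lower, beside 12.1% and 10.5%.

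Among the mRNAs of cytoplasmic vesicle proteins, those of Sdcbp and Flot1 were lower in B16-F1R2, as Cd63 was. Of 5 other vesicle markers, 0 were called higher and 4 lower in B16-F1R2 against B16-F1, beside 28.2% and 27.2% of all tested genes, with a median log2 fold change of -0.25. Sdcbp, the syntenin that links Cd63 to the ESCRT-associated protein Alix during vesicle budding, fell by 0.88, from 315 and 318 FPKM to 174 and 170 FPKM, and stood at 172 and 181 FPKM in B16-F1R2L. Flot1, a flotillin of membrane rafts, fell by 0.77. Pdcd6ip, which encodes Alix, fell by 0.25 and Flot2 by 0.18, but neither call was stable. That of Pdcd6ip was lost without B16-F1 replicate 1 or B16-F1R2 replicate 1 (adjusted p = 0.075 and 0.060, limma). That of Flot2 was lost without either B16-F1 library or B16-F1R2 replicate 2, with no filter, with no trend and under quantile normalization (adjusted p from 0.051 to 0.17, limma). Tsg101, an ESCRT-I subunit, had a log2 fold change of 0.09 that did not pass the test. In B16-F1R2L against B16-F1, 0 were higher and 3 lower, beside 29.5% and 27.1% of all tested genes, and between the derived lines 1 was higher and 0 lower, beside 12.1% and 10.5%. Where 0 genes of these lists were called in a direction by limma, the number at an unadjusted p under 0.05 was also 0. No list was tested as a set.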

How the data were processed

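RNA from 6 libraries of 3 B16 melanoma lines was measured. Per the study's methods and the submitters' processing notes, the authors prepared stranded poly(A) libraries (TruSeq, HiSeq2500), checked single-end reads of 50 bases with FastQC 0.10.1 and aligned them to mm9 with TopHat2 2.0.10, Bowtie 1.0.0 and SAMtools 0.1.1.9, allowing 2 mismatches and 20 multihits. They deposited FPKM per gene in 1 table, without pooling replicates. Cuffnorm and DESeq2 are named, and the gene annotation behind the FPKM is not given in the sources used here.

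The deposited FPKM were put on the log2(FPKM + 0.1) scale, and of 23951 genes the 11379 that reached 1 FPKM in 2 or more libraries were tested. The lines were compared over all 6 libraries with limma 3.58.1 in R 4.3.3, with a variance trend, Benjamini-Hochberg adjustment over all tested genes and a threshold of 0.05, without a block. No count test was run because FPKM are not counts. An exact test on 2 against 2 libraries could not go below p = 0.333. The fit was tested on simulated data with far fewer changed genes than were called here, which does not settle how it performs on these data. Read numbers are estimates from the lowest FPKM steps. Fold changes are on the log2(FPKM + 0.1) scale, which understates those of low genes.

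The 10 tetraspanins, the gene lists and the tests were chosen with earlier results of these data known. All 10 are named, and of each other list at most 6 called genes with the largest change in B16-F1R2 against B16-F1, plus Adam10, Igsf8, Ptgfrn and Itgb1. Itga3, Tspan5, Tspan12, Tspan14 and Tsg101 fall outside this rule and were named after their values were seen. Markers are given as sums and counts. Those at 0 and Cd79a, Cd79b, Col1a2, Col3a1, Csf1r, Lyz2, Mitf, Pdgfra, Pecam1, Pmel and Tyr were named after their values were seen. Positions came from NCBIM37 with GENCODE vM1, upstream windows from RefSeq (GRCm38.p6), and copies from blastn 2.17.0. Python 3.11.15, numpy 2.4.6, pandas 2.3.3 and matplotlib 3.10.9 did the rest.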

Additional observations from a re-analysis of the deposited data

How the results depend on the processing

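Depth limits the low genes: 1 read on Cd82 is worth 0.0368 to 0.0426 FPKM, and the size of the change of Cd37 depends on the pseudocount. With 17 alternatives for each comparison, 343 of 374 values of the 8 tested tetraspanins, leaving out Cd37 against B16-F1, which the filter fixed, kept their direction and their side of the threshold. Under a minimum size of 1 for the log2 fold change, 1 tetraspanin was higher and 2 were lower in B16-F1R2 against B16-F1, 1 and 2 in B16-F1R2L against B16-F1, and 0 and 0 between the derived lines. The 1 higher was Cd37, which had to differ. Between the derived lines, the number lower in B16-F1R2L was 0 with no filter, with no trend and in the fit to 4 libraries, and 0 to 1 when a library was left out. The cause was not tested.

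None of the values that changed sign had been called. Tspan4 in B16-F1R2 against B16-F1 became 0.059 under quantile normalization and ran from -0.073 to 0.056 when a library was left out, and Itgb1 became 0.0044 under quantile normalization. Tspan17 in B16-F1R2L against B16-F1 became 0.067 after rescaling and ran from -0.21 to 0.14 when a library was left out. Between the derived lines, Cd9 became 0.048 and 0.00054 after rescaling to a common FPKM sum and under quantile normalization, Cd63 became 0.10 and 0.12 and ran from -0.048 to 0.032 when a library was left out, and Cd151 became 0.021 after rescaling. Rescaling moved the median of all genes in B16-F1R2L to 0.12 against B16-F1 and 0.13 against B16-F1R2.

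Of the other tetraspanins, the 2 higher in B16-F1R2, Tspan2 and Tspan15, became 4 under quantile normalization, and with a filter at 5 FPKM, which neither passed, Tspan14 was the 1 called, the 5 lower became 3 without B16-F1 replicate 1, a minimum log2 fold change of 1 in size left 0 lower and 1 higher in each derived line against B16-F1, Tspan2, which had to differ, the 4 higher in B16-F1R2L against B16-F1 became 2 under several settings, and the 3 higher in B16-F1R2L against B16-F1R2 became 1, Tspan9, under most. Among the other tetraspanins, a replicate block added Tspan14 to those higher in B16-F1R2 and dropped Tspan13 between the derived lines. It left the counts of the 8 tested tetraspanins described first at 3 higher and 4 lower for B16-F1R2. These were 3 and 5 for B16-F1R2L, and 2 and 1 between the derived lines. Differences between replicates 1 and 2 correlated between lines at 0.052, -0.102 and 0.079 over 11379 genes. Such values cannot settle whether libraries of equal number were handled together.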
